A study of Mus musculus with 42 samples.

Results

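Old and newly made RNA were compared in NIH3T3 cells that had recovered for 4 h from arsenite stress (RC4), with 3′READS libraries of the flow-through (Ft) fraction and of the 4-thiouridine (4sU) fraction of the same cells. These were 2 of the 42 samples of the series. The reads of all polyadenylation sites (PASs) in the last exon of a protein-coding gene were summed, and log2(Ft/4sU) was taken for each gene listed in both libraries with at least 20 reads in the pair. This gave 9173 of the 12103 genes with a PAS in any library. Of these 9173 genes, 243 were stress-induced. They were 3.19% of the 7621 genes that could be tested for it, and they were raised by a log2 of at least 1 in total RNA of RC4 cells over non-treated (NT) cells in 3′READS and again in RNA-seq, with 1 library per condition in each. The total RNA libraries that chose them were not the fraction libraries. Total RNA holds both old and new RNA, however, so the choice is not independent of levels in the RC4 fractions.

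NIH3T3 is a mouse embryonic fibroblast line, and the labels give its strain as C57BL/6. AS cells were given 250 µM sodium arsenite for 1 h, and RC4 cells were given the same stress, washed and left without arsenite for 4 h. All cells of the fraction libraries, NT included, took 50 µM 4sU for 1 h before harvest, so that in RC4 cells the label marked RNA made in the last hour of recovery. RC4 had 1 library per fraction, AS had 1, and NT had 2, of which replicate 1 is labelled 0 h and replicate 2 is labelled 4 h. The NT samples are separate samples by their labels, and nothing in the labels says that they came from separate cultures. Their spread may be technical.

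In a cell fed with 4sU, transcripts made during the label take up the analogue and can be pulled out, while transcripts made earlier stay in the flow-through. A high log2(Ft/4sU) is therefore typical of long-lived mRNAs whose synthesis is low for their amount, and a low value is typical of short-lived mRNAs or of genes switched on during the label. The division may not be complete. In AS cells the label and the stress covered the same hour, yet Hspa1b in the Ft fraction was at 28.2 and 38.0 RPM in NT and 850 in AS. How much new RNA stayed in the flow-through was not tested. Old RNA here means RNA of the Ft fraction, and new RNA that of the 4sU fraction. Arsenite damages proteins and oxidizes thiols. It is known to call up heat shock genes through HSF1, antioxidant genes through NRF2, and growth and stress signalling genes with short-lived, AU-rich mRNAs.

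The RC4 4sU library held 4431949 PAS reads and the RC4 Ft library 3074676, within the range of the 8 fraction libraries (2170692 to 4431949). The median gene had 143 reads in the 4sU library and 77 in the Ft library. The median 95% exact binomial interval of log2(Ft/4sU) reached 0.43 to either side, and 0.22 for the stress-induced genes. These intervals cover counting error only, since RC4 had 1 library per fraction. They take each deposited read as a separate molecule, so any PCR copies left among the reads would make them too narrow. The median SD between the NT samples was 0.20 over all genes and 0.22 over the stress-induced genes. All 8 fibroblast markers were listed, and none of 6 skeletal muscle markers was. Of 6 epithelial, 4 endothelial and 4 blood cell markers, 2, 1 and 1 were listed, and none of these lists summed to more than 96.4 RPM in a fraction library. Of the fibroblast markers, Col1a1 was at 58.0 RPM in the 4sU and 40.5 RPM in the Ft library of RC4 cells, and the markers summed to 4735 and 11323 RPM there, against 8878 to 9715 in 4sU and 19415 to 20257 in Ft libraries of NT and AS cells. The part of this in the results was not tested. In these bulk samples, fewer cells of a kind and less RNA per cell cannot be told apart.

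Values are in RPM, the reads of a gene scaled to the reads of its library without mitochondrial genes, which sets both fractions to the same total, so log2(Ft/4sU) is relative between genes and gives no half-life. The median over all genes was -0.33 in RC4 cells, -0.18 and -0.21 in the NT samples and -0.03 in AS cells. A gene was called rich in new RNA where its log2(Ft/4sU) was 1 or more below the RC4 median, and rich in old RNA where it was 1 or more above it. Of all genes, 1747 (19%) were rich in new RNA and 1723 (18.8%) in old RNA.

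The stress-induced genes were spread through the middle of the distribution of all genes. Of the 243, 47 were rich in new RNA (19.3%, beside 19% of all genes), 29 were rich in old RNA (11.9%, beside 18.8%) and 167 lay between. Their median log2(Ft/4sU) was -0.46, with quartiles of -1.17 and 0.26, beside quartiles of -1.10 and 0.43 over all genes. The lowest and the highest member were 29.6-fold apart. The counting interval lay below the median of all genes for 107 members and above it for 91. Just inside and just outside the limit for new RNA were Cdk17 at -1.37 and Runx1 at -1.30, and at the limit for old RNA Phf10 at 0.68 and Ahsa1 at 0.66. The number of uridines in a transcript can bias its capture. With a linear adjustment for uridines, 33 members were rich in new RNA and 28 in old RNA, and the median distance of the members from the median of all genes went from -0.13 to 0.04. The adjustment changes the spread of all genes too, so these counts cannot be set beside the 19% and 18.8% above.

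**Figure D1:**
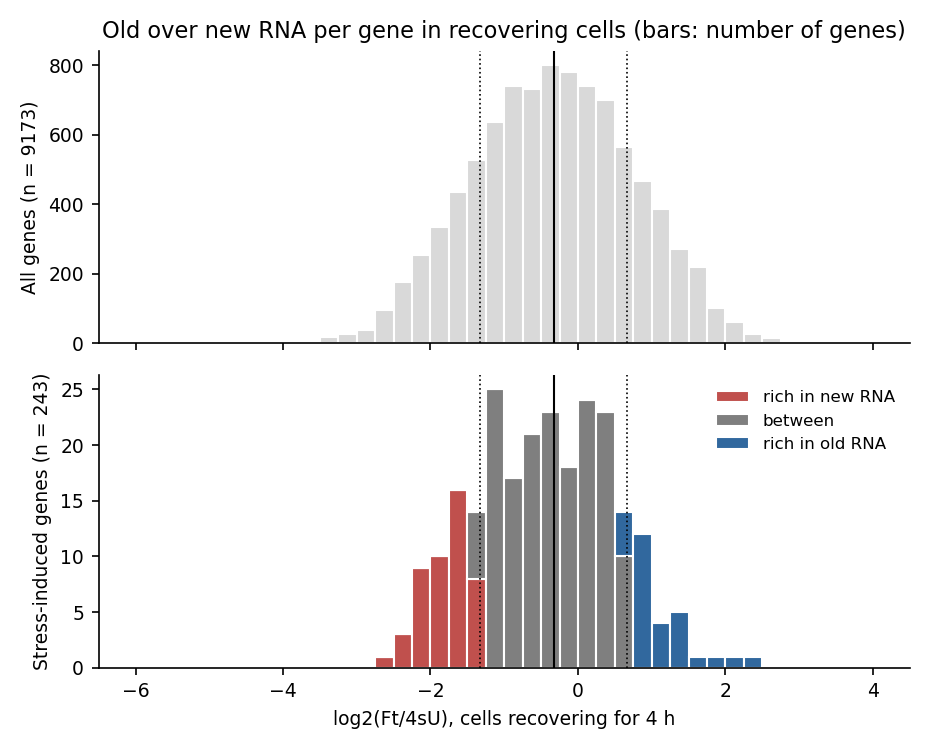
Number of genes (vertical axis) by log2(Ft/4sU) in RC4 cells (horizontal axis, steps of 0.25), for all 9173 genes above and the 243 stress-induced genes below. The solid line is the median of all genes (-0.33) and the dotted lines are 1 above and below it. The stress-induced genes cover the middle of the distribution, with 47 to the left and 29 to the right of the dotted lines.

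Among members with at least 50 reads, the 10 lowest in log2(Ft/4sU) were Jhdm1d, Tiparp, Skil, Ccng2, Mdm2, Bach1, Peli1, Klf11, Serpinb9b and Klf6, at -2.54 to -2.06. Jhdm1d, a histone demethylase gene, had 517 reads in the 4sU and 62 in the Ft library of RC4 cells. Mdm2, the ubiquitin ligase that holds p53 down, had 7821 and 1159 reads, and its log2(Ft/4sU) was -2.23 in RC4 (95% interval -2.32 to -2.14), -2.68 and -2.72 in NT and -2.25 in AS. Bach1, the repressor of antioxidant genes, was at -2.19 in RC4 and at -2.82 and -2.38 in NT. Both transcripts held much new RNA before the stress as well.

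At the other end, the highest 10 with at least 50 reads were at 1.09 to 2.14 and included Plin2, Rheb, Cth, Car6, Hspa1a, Clu, Sqstm1, Tmem66 and Hsp90ab1. Hsp90ab1, the constitutive HSP90, had 593 reads in the 4sU and 1816 in the Ft library. Log2(Ft/4sU) of Hsp90ab1 was 2.14 in RC4 (interval up to 2.27), 1.77 and 1.66 in NT and 1.71 in AS. Sqstm1, the autophagy receptor p62, was at 1.46 in RC4, 0.70 and 0.90 in NT and -0.34 in AS. Tmem66, which codes for a regulator of calcium entry, was at 1.93. Mmp13 was listed highest of all members at 2.35, with 9 and 32 reads and an interval of 1.25 to 3.61.

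No heat shock gene was rich in new RNA. Of 43 chaperone and co-chaperone genes in 4 lists, 42 were measured, and 18 of them were rich in old RNA (18.8% of all genes). Of these 42, 17 were stress-induced, 7 of them rich in old RNA, with a median log2(Ft/4sU) of 0.65. The stress-induced ones were at -0.15 and 0.03 in the NT samples, by their medians over the 15 measured there. In 12 of those 15, RC4 was above both NT samples (39.4% of all genes).

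New RNA of Hspa1b, the inducible HSP70, was far above NT in AS cells and again at 4 h. In the 4sU fraction it was at 51.8 and 56.5 RPM in NT, 3524 in AS and 6456 in RC4, and in the Ft fraction at 28.2 and 38.0 in NT, 850 in AS and 7827 in RC4. New RNA in RC4 was thus 119-fold and old RNA 239-fold over the mean of NT. In log2(Ft/4sU) it was at 0.28 in RC4 (0.25 to 0.30), above NT (-0.88 and -0.57) and AS (-2.05). The difference between RC4 and AS was 2.57 (SE 0.34, adjusted p = 0.0397, edgeR quasi-likelihood test of fraction by condition with Benjamini-Hochberg adjustment over 10414 genes). Each of these conditions had 1 library per fraction, and the spread came from the NT samples alone. Hspa1a, whose sequence is nearly identical to that of Hspa1b, had 148 and 257 reads, and how reads were divided between the pair is uncertain.

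Dnajb1, the HSP40 partner of HSP70, had less new RNA at 4 h than in stress. Its new RNA was at 189 and 105 RPM in NT, 2980 in AS and 1156 in RC4, while old RNA was at 57.4, 46.1, 651 and 1315 RPM. For Dnajb1, log2(Ft/4sU) was 0.19 in RC4, -1.72 and -1.19 in NT and -2.19 in AS. Dnajb4, a related co-chaperone, was lower, at -1.20 in RC4 and -2.36 and -2.08 in NT. For both genes RC4 lay above NT and AS.

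Hsph1, an HSP110 nucleotide exchange factor for HSP70, had more reads than any of these, 38469 in 4sU and 41880 in Ft. It was at 0.65 in RC4 (0.63 to 0.67), -0.62 and -0.17 in NT and -1.57 in AS. Hspe1, the mitochondrial HSP10, was at 0.81 in RC4, closer to NT (0.53 and 0.72). Cryab, a small heat shock protein, was at 0.85 and slightly below both NT samples (0.95 and 1.03), with new RNA 18.0-fold and old RNA 16.4-fold over NT. Bag3 and Hspb8, partners in chaperone-assisted autophagy, had like values (0.95 and 0.97 in RC4, -0.05 and 0.08 for Bag3 in NT, -0.15 and 0.09 for Hspb8 in NT). The stress-induced chaperone genes ranged from -1.20 (Dnajb4) to 2.14 (Hsp90ab1). Between these ends, Dnaja1 was at -0.24, Dnaja4 at 0.04, Ahsa2 at 0.05, Hsp90aa1 at 0.18 and Hspa8, the constitutive HSP70, at 0.82. Hspa8 was near the floor in NT, at 5.14 and 4.24 RPM in the 4sU fraction. In total RNA it was at 20.3, 12.3 and 0 RPM in NT and 23.7 in RC4. The gene model used for Hspa8 had 2368 of its 2885 nt in the 3′UTR. Whether these reads stand for the main transcript of Hspa8 was not tested, and its place among the stress-induced genes has the same limit.

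The heat shock element searched for was GAANNTTCNNGAA, on both strands, from 250 bases before to 50 after the start of a gene. It was found in 3 of the 181 stress-induced promoters in the RefSeq table (Chordc1, Hsph1 and Hspe1) and in 0.554% of all 7395 promoters. A match is a description of letters and not a bound site. The 3 are shown because they are the only members with the full pattern in this window, which is in capitals (GRCm38.p6, strand of the gene). Chordc1, an HSP90 co-chaperone gene, is shown at chr9:18292255-18292284 (plus strand), Hsph1 at chr5:149636279-149636308 (minus strand) and Hspe1 at chr1:55088056-55088085 (plus strand).
Chordc1: tgcaaccgGAACGTTCGGGAAaattcctga
Hsph1: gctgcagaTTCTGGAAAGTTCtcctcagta
Hspe1: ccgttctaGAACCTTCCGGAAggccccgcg
Their log2(Ft/4sU) in RC4 was -0.17, 0.65 and 0.81.

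Most antioxidant genes had new RNA above NT. The NRF2 list had 22 genes, all measured, of which 15 had new RNA at least 1 log2 above the higher NT library (7.02% of all genes) and 11 had old RNA above it to that degree (7.96% of all genes). Their median log2(Ft/4sU) was 0.20 in RC4, below its value in both NT samples (0.58 and 0.90). Of 21 genes, 11 were below both NT samples (39% of all genes) and 5 above (39.4% of all genes). Of the 8 stress-induced genes of the list with both NT values, 2 were below both and 3 above. Their median difference of RC4 from NT was 0.06.

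Hmox1, haem oxygenase, was far above NT in both fractions. New RNA was at 56.6 and 52.8 RPM in NT, 898 in AS and 2974 in RC4. Old RNA was at 20.1 and 24.6 in NT, 274 in AS and 2585 in RC4. Its new RNA was 1.73 log2 higher in RC4 than in AS. The ratio of old to new RNA, as log2, was -0.20 in RC4 (-0.24 to -0.16), above NT (-1.50 and -1.10) and AS (-1.71).

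Other stress-induced genes of the NRF2 list act on glutathione and thioredoxin. Gclc and Gclm code for the subunits of the enzyme that starts glutathione synthesis, and their transcripts differed in log2(Ft/4sU). Gclc was at -1.85 in RC4 (-2.01 to -1.70), between its NT values (-1.52 and -2.19), and Gclm was at 0.00 in RC4 and 0.28 and 0.02 in NT. New RNA was 6.85-fold over NT for Gclc and 5.29-fold for Gclm. Txnrd1, thioredoxin reductase, was at -0.32 in RC4 and at -1.04 and -0.95 in NT. Srxn1, sulfiredoxin, was at 0.21 and within its NT values (-0.05 and 0.25), with new RNA 14.7-fold and old RNA 15.9-fold over NT. Slc7a11, the cystine importer, was at -1.19 in RC4 and -3.19 in the NT sample where it could be measured.

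Prdx1 had the opposite order. This peroxiredoxin gene was at 461 and 521 RPM in the 4sU fraction of NT, 488 in AS and 5626 in RC4, and at 1491 and 1635 in the Ft fraction of NT, 1917 in AS and 6909 in RC4. New RNA was 11.5-fold over NT and old RNA 4.43-fold. This put log2(Ft/4sU) at 1.69 and 1.65 in NT, 1.97 in AS and 0.30 in RC4 (0.27 to 0.32). It was the 1 member that was 1 or more below both NT samples in RC4 (4.23% of all genes). Hgsnat, a lysosomal acetyltransferase gene, had the same order, with 0.94 and 0.85 in NT and 0.01 in RC4.

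The antioxidant response element searched for was TGACNNNGC, on both strands. It was found in 39 of 181 stress-induced promoters (21.5%) beside 17.4% of all promoters, and in 8 of the 18 promoters of the NRF2 list. Of the 7 promoters of stress-induced NRF2 genes, 4 held it, and they are shown because they are the stress-induced NRF2 genes with the element in this window (capitals mark the element, GRCm38.p6, plus strand). They lie at chr10:82859104-82859133 for Txnrd1, chr3:122245413-122245442 for Gclm, chr2:152105542-152105571 for Srxn1 and chr4:116685456-116685485 for Prdx1.
Txnrd1: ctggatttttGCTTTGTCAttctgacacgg
Gclm: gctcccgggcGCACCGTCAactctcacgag
Srxn1: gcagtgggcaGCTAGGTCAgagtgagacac
Prdx1: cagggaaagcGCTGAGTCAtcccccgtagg

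Most immediate early genes, which code for transcription factors and other quick regulators, had less new RNA at 4 h than in AS. Of 34 measured on that list, 22 had new RNA at least 1 log2 lower in RC4 than in AS (16.8% of all genes), and 7 were stress-induced in RC4 total RNA. Atf3, a stress-induced repressor, was at 21.4 and 17.2 RPM in new RNA of NT, 438 in AS and 373 in RC4, and at 6.34, 3.11, 119 and 510 RPM in old RNA. Atf3 was at a log2(Ft/4sU) of 0.45 in RC4 (0.35 to 0.56), -1.76 and -2.47 in NT and -1.87 in AS. New RNA of Egr1, a growth factor response gene, was 349 RPM in AS and 90.8 in RC4, while its old RNA was 63.8 and 64.9 RPM. In total RNA, Egr1 was at 12.7 RPM in RC4 and at 360, 3.72 and 0 RPM in the NT libraries. Only the last of these NT libraries was used to choose members. Ddit3, Gadd45g and Txnrd1 were likewise lower in total RNA of RC4 than in another NT library. Klf6 was at -2.06 in RC4, -2.94 and -3.05 in NT and -2.90 in AS. Maff, a small MAF partner of NRF2, was rich in old RNA at 0.93, with -0.25 and 0.03 in NT. Gadd45a, a DNA damage response gene, and Mafk were at -1.10 and -0.76 in RC4. Of the 32 genes of the list with both NT samples, 30 were above both NT values in RC4, beside 39.4% of all genes.

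Of 6 stress-induced genes of the integrated stress response, 5 were called above NT in log2(Ft/4sU) by edgeR with the RNA sample of origin as a block, which leaves 1 residual degree of freedom (4.47% of all genes), and 0 without it. Ddit3, which codes for CHOP, was at 298 and 261 RPM in new RNA of NT, 1051 in AS and 588 in RC4, and its old RNA was at 128, 124, 531 and 494 RPM. At -0.25 in RC4, its log2(Ft/4sU) was above that of NT (-1.22 and -1.07) and AS (-0.99). Chac1, a glutathione-degrading enzyme gene, had new RNA of 299 RPM in AS and 104 in RC4, and old RNA of 87.2 and 89.4. It was at -0.22 in RC4 and -1.45 and -1.20 in NT. Slc3a2 and Trib3, both ATF4 targets, were at -0.39 and -0.35 in RC4 and had more new RNA in RC4 (515 and 267 RPM) than in AS (454 and 161 RPM). Ppp1r15a, the phosphatase subunit GADD34, was at 0.17 in RC4, between its NT values (0.24 and -0.84).

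Of 15 measured p53 response genes, 4 were rich in new RNA and 0 in old RNA (19% and 18.8% of all genes), and 5 of the 15 were stress-induced. Of these, Mdm2, Trp53inp1 and Plk2 were rich in new RNA, at -2.23, -2.01 and -1.44. Plk3, a kinase of the same family as Plk2, was at 0.27. Cdkn1a, the cell cycle inhibitor p21, was at 0.34 (0.28 to 0.40) in RC4, -1.35 and -0.91 in NT and -0.96 in AS. Its new RNA was at 713 and 469 RPM in NT and 1232 in RC4, while its old RNA was at 281 and 250 in NT and 1558 in RC4. Old RNA of Cdkn1a was 5.88-fold over NT and new RNA 2.13-fold.

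Among signalling genes, Ptgs2, which codes for the inducible cyclooxygenase, had 35160 reads in the 4sU and 8294 in the Ft library. It was at 1882 and 1710 RPM in new RNA of NT, 3216 in AS and 8188 in RC4, and at 210, 260, 463 and 2776 RPM in old RNA. Log2(Ft/4sU) was -1.56 in RC4 (-1.60 to -1.53), -3.16 and -2.72 in NT and -2.80 in AS, so that it was rich in new RNA and yet above NT. Ereg and Hbegf, ligands of the EGF receptor, were at -1.25 and -0.60 in RC4. In old RNA, Ereg was at 36.6 and 32.1 RPM in NT and 470 in RC4, and Hbegf at 29.6 and 27.7 in NT and 118 in RC4. Il11 was rich in old RNA at 0.69, with -1.28 and -0.69 in NT. Slc30a1, the zinc exporter, was at -1.28 in RC4 and at -2.86 and -2.56 in NT. All of these lay above both NT samples. The MAP kinase phosphatase genes Dusp4, Dusp5 and Dusp16 were at -0.75, -0.98 and -1.49.

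**Figure D2:**
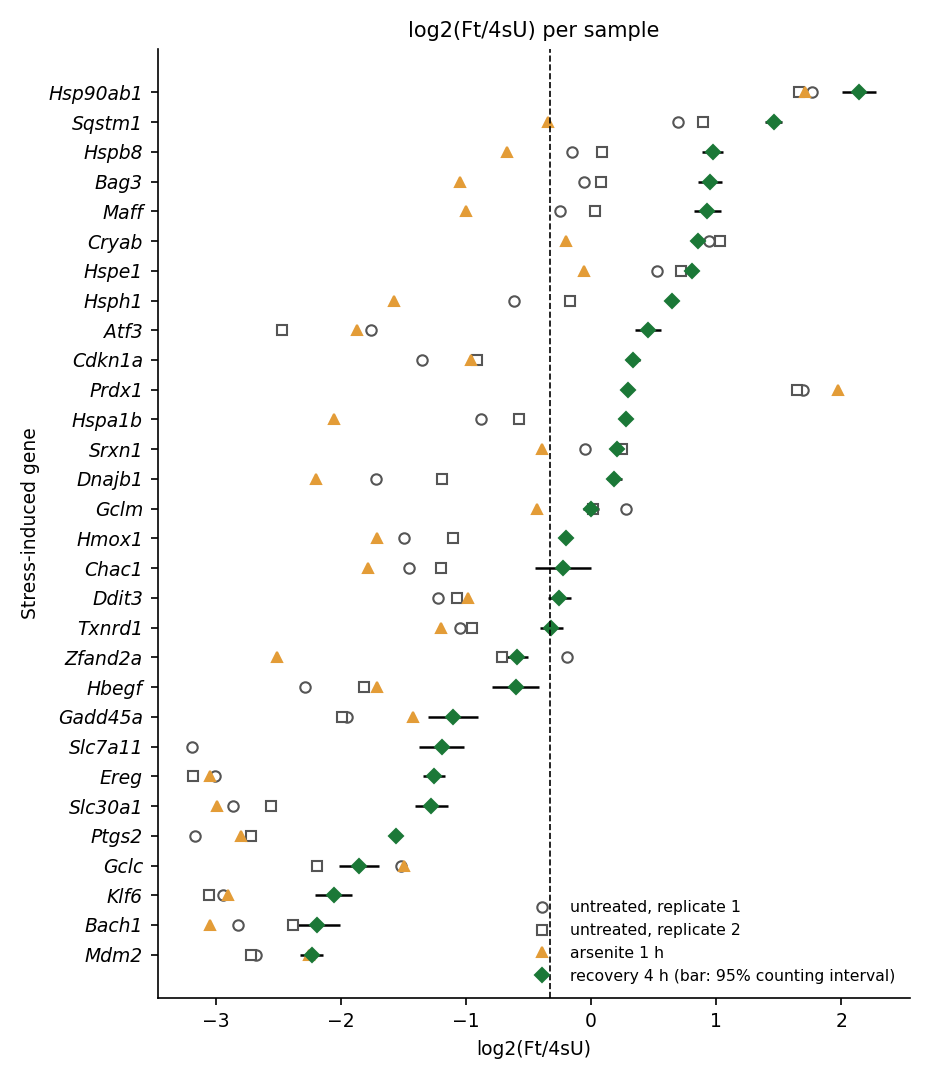
log2(Ft/4sU) (horizontal axis) of 30 stress-induced genes in each sample, ordered by RC4. Diamonds are RC4 with the 95% counting interval as a bar, open circles and squares the NT replicates, triangles AS, and the dashed line is the RC4 median of all genes (-0.33). Most diamonds lie to the right of the NT symbols, while Prdx1 lies to the left and Gclc, Gclm, Srxn1, Cryab and Zfand2a lie between or beside them.

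In RC4, the stress-induced genes as a whole were shifted toward old RNA relative to NT cells. They were chosen as raised in total RNA of RC4 over NT cells, and total RNA holds old RNA. The shift may thus be given in part by that choice, and the size of this part was not tested. Of the 243, 205 had a value in both NT samples, with medians of -0.97 and -0.86 in NT and -0.36 in RC4. The median difference of RC4 from the mean of NT was 0.53, beside 0.01 over all genes. Above both NT samples were 152 of 205 members (39.4% of all genes), and below both were 19 (39% of all genes). By 1 or more, 21 members were above both (3.3% of all genes). The largest of these distances from the higher NT sample were those of Zcchc2 (2.39), Atf3 (2.21), Ereg (1.75), Arl5b (1.72) and Gdnf (1.57). With each sample centred on its own median over all genes, 167 members were above both NT samples and 11 below, beside 48.9% and 30.5% of all genes.

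Without a term for the RNA sample that both fractions came from, edgeR called 0 of 10414 genes in the difference of RC4 from NT (0% either way), with 663 higher and 554 lower at an unadjusted p under 0.05. DESeq2 called 16 higher and 1 lower. With the sample of origin as a block, which leaves 1 residual degree of freedom, edgeR called 465 genes higher (4.47%) and 286 lower (2.75%), and of the 243 members 77 were called higher and 2 lower (Prdx1 and Hgsnat). The spread in these fits comes from the NT samples, and the lone RC4 and AS samples were assumed to vary like them. With the block, the difference of RC4 from NT was 2.57 for Atf3 (SE 0.37, adjusted p = 3.13e-09), 1.70 for Dnajb1 (SE 0.22, adjusted p = 4.22e-11), 1.89 for Ereg (SE 0.23, adjusted p = 4.38e-12) and -1.32 for Prdx1 (SE 0.19, adjusted p = 2.24e-09). In the fit without the block, adjusted p was 0.181 for Ereg and 0.216 for Atf3. The 5 genes most positive with the block (Zfp382, A430033K04Rik, Zfp595, Zfp72 and A930033H14Rik) and the 5 most negative (Alcam, Ttc14, Nprl3, Gtf2h2 and Ankrd16) held no member.

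RC4 was also set against AS. The median log2(Ft/4sU) of the members was -1.15 in AS, and the median difference of RC4 from AS was 0.75. RC4 was above AS in 181 of the 213 members with both values (44.8% of all genes). Without the block edgeR called 4 genes higher (0.0384%) and 0 lower (0%), with 1076 and 796 at an unadjusted p under 0.05, and Hspa1b was the member among the 4. DESeq2 called 96 higher and 5 lower. With the block, 949 were higher (9.11%) and 487 lower (4.68%), and 109 members were higher and 1 lower. RC4 minus NT and RC4 minus AS share the RC4 libraries, and the choice of members by total RNA of RC4 cells bears on both.

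Levels over NT in each fraction show which members were still being made. New RNA was at least 1 log2 above the higher NT library for 158 members (7.02% of all genes) and old RNA for 209 (7.96% of all genes). Both were raised for 152 (4.27% of all genes). Old RNA alone was raised for 57, new RNA alone for 6 and neither for 28. Of all 9173 genes measured, these 3 counts were 338, 252 and 8191. An unlisted gene was counted as 4 reads here, the most that could go unlisted. Total RNA of RC4 cells chose the members, so raised levels in the fractions are in part given by that choice. Heat shock genes fell nearly all among those raised in both fractions (16 of 17), and so did all 9 stress-induced NRF2 genes.

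The 57 members with old RNA alone raised held Ddit3, Chac1, Gadd45g, Slc3a2, Cdkn1a, Mafk, Slc30a1, Hbegf and Il11. Their median difference of RC4 from NT in log2(Ft/4sU) was 0.83, and 54 of the 56 with NT values lay above both NT samples, which follows in part from the way they were set apart. Of the 28 with neither raised, Skil and Sik1 were below NT in both fractions, although total RNA had chosen them as raised. New RNA was 0.519-fold of the mean of NT for each, and old RNA 0.852-fold and 0.760-fold. The median over all genes was below NT too, at a log2 of -0.30 in new RNA and -0.36 in old RNA. Skil was at -0.23 in old RNA. The 6 with new RNA alone raised were Serpinb9b, Slc27a1, Cnksr1, Ubxn4, Adh7 and Ahsa1. Ahsa1, an activator of HSP90, had new RNA 2.70-fold and old RNA 2.09-fold over the mean of NT. P2rx7, an ATP-gated channel gene, was not listed in any NT or AS fraction library and was at 466 RPM in new RNA and 228 RPM in old RNA of RC4 cells.

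**Figure D3:**
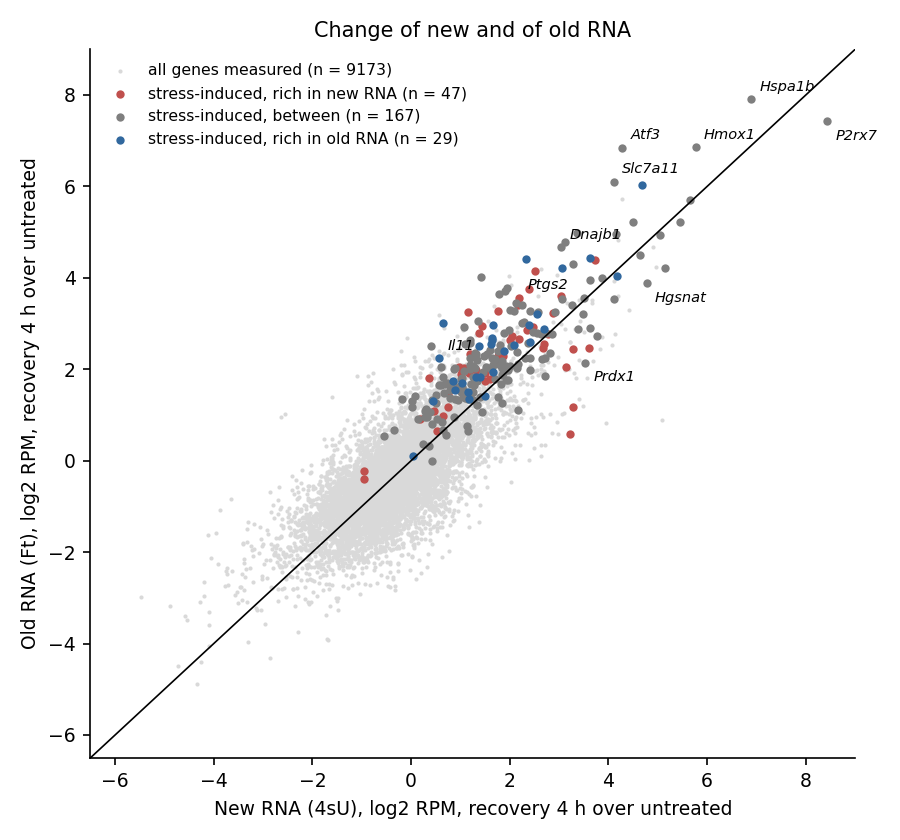
Change of RPM from the mean of NT to RC4, as log2, for new RNA (4sU, horizontal axis) and old RNA (Ft, vertical axis), with unlisted genes at 4 reads. Grey points are the 9173 genes measured, coloured points the 243 stress-induced genes by their class in RC4, and the line marks equal change. Most stress-induced genes are above the line, as Hspa1b and Atf3 are, while Prdx1 and Hgsnat are below it.

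Compared with AS, few members had less new RNA at 4 h and many had more. New RNA was at least 1 log2 lower in RC4 than in AS for 10 members (16.8% of all genes). These were Zfp367 (-1.99), Egr1 (-1.94), Gadd45g (-1.92), Chac1 (-1.52), Utp14b (-1.42), Dnajb1 (-1.37), Taf7 (-1.25), Sik1 (-1.19), Hist1h2bc (-1.04) and Klf6 (-1.03). It was at least 1 log2 higher in 134 members, beside 1217 of all 9173 genes. Members were chosen for high total RNA in RC4 and not in AS, which favours this order.

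Few genes were raised in total RNA at the end of the 1 h stress. The edgeR test of 3 AS against 3 NT total RNA libraries called 0 of 9033 genes, with 18 raised at an unadjusted p under 0.05, and DESeq2 called 0, with 25. The numbers of these libraries pair them, and with the replicate number as a block edgeR called 6. In each of the 3 pairs, 18 of 7169 genes (0.251%) were raised by a log2 of at least 1. Of these 18, 10 were members (Hmox1, Dnajb1, Gadd45g, Sik1, Ddit3, Atf3, Chac1, Ccng2, Ppp1r15a and Hspa1b). Their median log2(Ft/4sU) was -0.02 in RC4, -1.47 and -1.14 in NT, and 9 of the 10 were above both NT samples. The other 8 were Tmem38b, Mt1, Mt2, Csrnp1, Pim3, Zfp36, Jund and Hist2h2aa2. Of those 8, 5 were rich in old RNA (18.8% of all genes), namely the metallothionein genes Mt2 (1.64) and Mt1 (0.84), Jund (1.55), Hist2h2aa2 (1.06, 11 and 16 reads) and Tmem38b (0.86), and Zfp36, which codes for an mRNA decay factor, was at -1.33.

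Members rich in new RNA ended in longer 3′UTRs. The median 3′UTR to the main PAS was 2043 nt in members rich in new RNA and 390 nt in members rich in old RNA, beside 1589 and 288 nt for all genes of these classes. Spearman's rho of log2(Ft/4sU) with 3′UTR length was -0.58 over 243 members and -0.47 over 9173 genes. With the number of uridines in the transcript, rho was -0.57 and -0.55, and with TIA1 binding, as log2(TIA1 RIP/input) in arsenite-stressed cells, it was -0.60 over 190 members and -0.54 over 7509 genes. These are descriptions across genes, which share both libraries and are not independent, and length, uridines and TIA1 binding are themselves related. Uridines also set how well a transcript is captured, and their part in the result was not tested apart from the linear adjustment above.

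**Figure D4:**
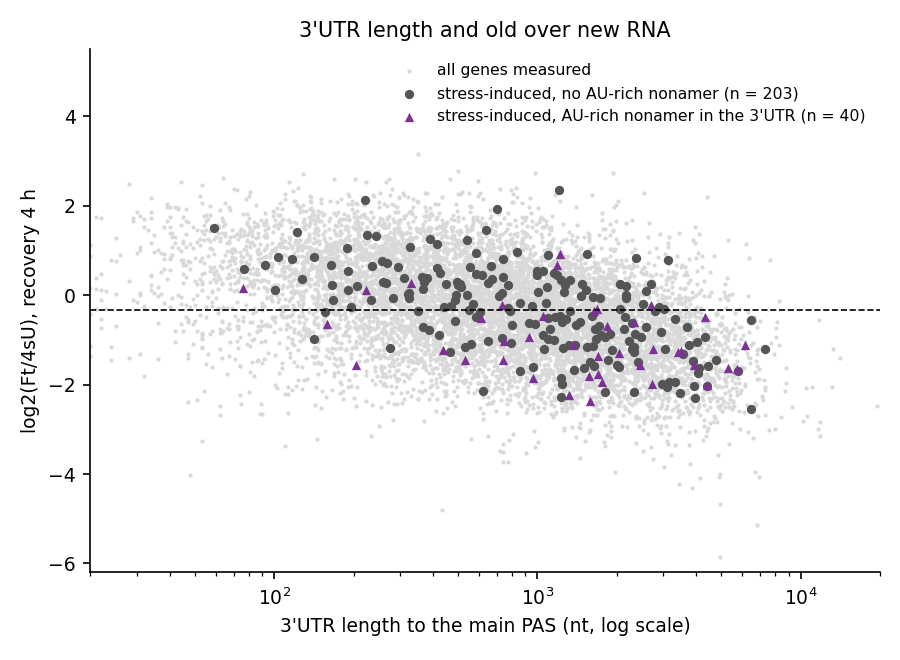
log2(Ft/4sU) in RC4 cells (vertical axis) against the length of the 3′UTR to the main PAS (horizontal axis, log scale). Small grey points are all genes, dark circles the 203 stress-induced genes without and purple triangles the 40 with the AU-rich nonamer, and the dashed line is the median of all genes (-0.33). Values fall from left to right, and most triangles lie at long 3′UTRs below the line.

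The AU-rich nonamer TTATTTATT, a core of elements known to shorten mRNA life, was in the 3′UTR of 40 of 243 members (16.5%, beside 6.19% of all genes). It was in 16 of the 47 members rich in new RNA (34.0%, beside 11.3% of all genes of that class) and in 2 of the 29 rich in old RNA (6.90%, beside 1.92%). Longer 3′UTRs have more room for it. Per 1000 nt of 3′UTR, there were 0.179 nonamers in members rich in new RNA and 0.366 in those rich in old RNA. Over all genes of these classes there were 0.0770 and 0.0554, so the order was the other way. In members rich in old RNA, only Il11 (5 matches) and Maff (2 matches) hold the nonamer, and overlapping matches were counted. Windows of 30 bases are shown for members at both ends of log2(Ft/4sU) and, between them, for Ppp1r15a, with the nonamer in capitals (mm9, strand of the gene). They lie at chr3:65358802-65358831 (plus) for Tiparp, chr10:117125970-117125999 (minus) for Mdm2, chr4:11098886-11098915 (plus) for Trp53inp1, chr1:151952920-151952949 (plus) for Ptgs2, chr7:52778326-52778355 (minus) for Ppp1r15a, chr7:4725103-4725132 (minus) for Il11 and chr15:79189208-79189237 (plus) for Maff.
Tiparp: ttccacacaaTTATTTATTttgccctagtt
Mdm2: ggcattgatgTTATTTATTtgcaaataaat
Trp53inp1: acttccccttTTATTTATTtgttttctaat
Ptgs2: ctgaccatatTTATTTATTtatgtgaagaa
Ppp1r15a: tagtttcctaTTATTTATTtatttatttat
Il11: aaaccagatcTTATTTATTtatttattttg
Maff: ttccacactcTTATTTATTgcacgaatcta
Their log2(Ft/4sU) was -2.37, -2.23, -2.01, -1.56, 0.17, 0.69 and 0.93 in this order, so that the nonamer was found at both ends.

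Within genes, the isoform that ended at the last PAS held relatively more new RNA than the one that ended at the first. The isoform that ends at the last PAS is also the longer one and has more uridines, which can bias its capture. These values were not adjusted for uridines, and the part of capture in the difference between isoforms was not tested. Of the 84 members with at least 100 reads at both PASs, the last was lower in 67, and in 46 the counting intervals were apart, with 3 apart the other way. The median difference was -0.81 at a median distance of 1206 nt. Over all 1313 genes of this kind it was -0.60 at 930 nt, and the last PAS was lower in 1040, with 547 apart this way and 46 the other way. Ereg went from 0.75 at its first PAS (chr5:91519720) to -2.10 at its last (chr5:91522679). Dnajb1 went from 1.49 to -0.31 over 934 nt, Txnrd1 from 1.21 to -0.54 over 1119 nt, and Hmox1 from 1.79 to -0.22 over 141 nt. Klf6 had the opposite order, with -2.74 at the first and 0.73 more at the last. Members with several isoforms were thus mixtures, and their summed value lies between those of the isoforms. Among the genes the study names for their isoforms, summed values in RC4 were 1.30 for Timp2, 0.77 for Tmem248 (listed as 0610007L01Rik) and -1.27 for Nmt1. Purb had 2 gene models, at -2.28 and 0.21.

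In total RNA, nearly all members were lower at later times than in RC4. Of the 243, 230 were below their RC4 level at 8 h, 235 at 12 h and 242 at 24 h of recovery, with 1 library each. The median log2 change from RC4 to 8 h was -1.03 in members rich in new RNA, -0.99 in those between and -0.79 in those rich in old RNA. By 24 h these medians were -1.46, -1.68 and -1.87. The order at 24 h was thus the reverse of that at 8 h, and the quartiles of the classes overlapped at all times. Spearman's rho of log2(Ft/4sU) with the change was 0.06, -0.01 and -0.10 at 8, 12 and 24 h (243 genes). RC4 total RNA chose the members and is the base of each change, so a fall from it is in part given by that choice.

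**Figure D5:**
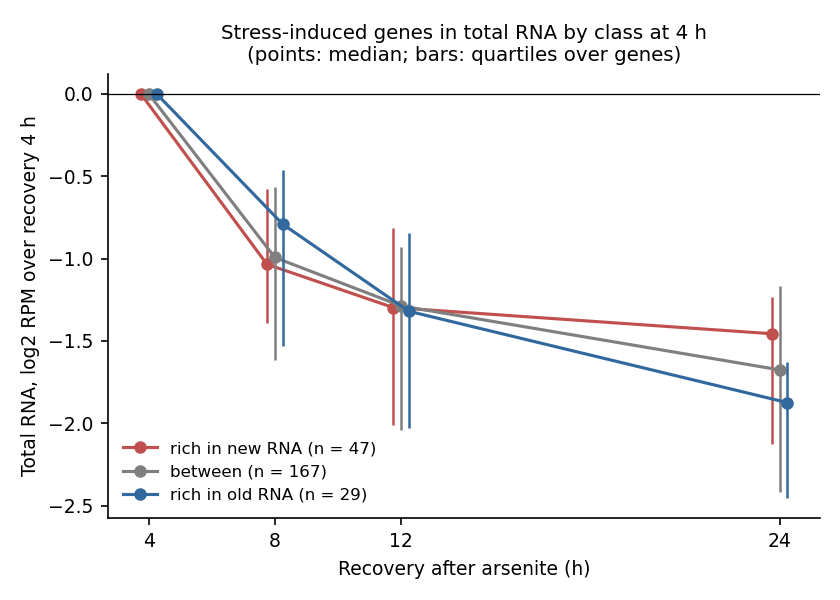
Median log2 change of RPM in total RNA from 4 h of recovery (vertical axis) at 8, 12 and 24 h (horizontal axis, hours) for members rich in new RNA, between and rich in old RNA in RC4. Bars are the quartiles over genes, with 1 library per time. The classes overlap throughout, with medians of -1.46, -1.68 and -1.87 at 24 h.

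Outside the stress-induced genes, lists of housekeeping genes were mostly rich in old RNA. Of 43 measured genes of cytosolic ribosomal proteins, 35 were rich in old RNA (18.8% of all genes) and 1 in new RNA (19% of all genes), with a median of 1.33, and of 58 of the respiratory chain 46 and 0, with a median of 1.29. With at least 200 reads, the lowest of all genes were Yod1 (-5.86), Fam126b, Ankrd16, Mysm1 and Nrip1, and the highest were Gcat (2.59), Eef1b2, Gnb2l1, Scand1 and Atp5g1. Neat1, the noncoding RNA of nuclear paraspeckles, was at 8281 RPM in new RNA of RC4 cells, against 1798 and 1804 in NT and 465 in AS, and at 4355 RPM in old RNA, against 514 and 488 in NT and 204 in AS. In log2(Ft/4sU), Neat1 was at -0.93 in RC4, -1.81 and -1.89 in NT and -1.19 in AS. Malat1, also nuclear, was at -3.76 in RC4 and at -3.43 and -2.45 in NT.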

How the data were processed

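The authors mapped 3′READS reads to mm9 (cutadapt and Bowtie2 per the labels) and deposited raw counts per PAS cluster. RNA-seq counts per gene (STAR per the labels) were deposited as raw counts. Tool versions are not given in the sources used here. Clusters and genes under 5 reads are unlisted. PASs were assigned to last exons of GENCODE genes on mm9, extended downstream by at most 4000 nt (24.0% of 40739 clusters lay in the extension). Stress-induced genes had a log2 fold of at least 1 in both assays, where 911 genes (12%) were lower to that degree. Members, gene lists and tests were chosen with earlier results of these data known.

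With 1 RC4 library per fraction, log2(Ft/4sU) had 95% Clopper-Pearson intervals and no test. Differences between conditions used the edgeR (4.0.16) quasi-likelihood test of fraction by condition over 8 fraction libraries (TMM, filterByExpr, Benjamini-Hochberg, 0.05), with DESeq2 (1.42.0) as an alternative. The scripts were tested on simulated data, with a log2 change of 2 between RC4 and NT in 200 genes. Where both fractions of a sample shared simulated effects, the fit without the block called 0% of these genes and the block fit 66%. Without shared effects, the fit without the block called 64.5%. A count of 0 from the fit without the block thus does not show that no gene differed. Both fractions of a sample come from the same RNA, so the sample of origin pairs them and was a block in an alternative fit. The 4sU and Ft deviations of the NT samples correlated with r = 0.27 over 8537 genes, and NT and AS deviations of total RNA replicates with r of 0.90 to 0.91 over 6642.

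Named were members on the stress lists, the 10 lowest and 10 highest members with at least 50 reads, the 5 genes at each end of RC4 minus NT past the threshold (of the block fit, since the fit without it called none), the 5 lowest and 5 highest of all genes with at least 200 reads, genes the study names for isoforms, and Malat1 and Neat1. Examples outside this rule (such as Hgsnat, P2rx7, Zcchc2, Ereg at its PASs and the sterol genes) were chosen after their values were seen. Some genes that the rule names are not reported here. Sequences are RefSeq promoters (GRCm38.p6, 181 of 243 members matched by symbol) and the mm9 genome.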

Additional observations from a re-analysis of the deposited data

Results flagged for a closer look

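The difference of RC4 from AS in log2(Ft/4sU) passed the edgeR quasi-likelihood test (Benjamini-Hochberg, 10414 genes, no block) for 4 genes. It was 3.08 for Cyp51, 3.08 for Nsdhl and 2.81 for Sc4mol (adjusted p = 0.0267 each), and 2.57 for Hspa1b (adjusted p = 0.0397). Cyp51, Nsdhl and Sc4mol code for enzymes that demethylate sterols in cholesterol synthesis. Each side had 1 library per fraction, and the spread came from the NT samples alone, so the test assumes that RC4 and AS vary like them.

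The 4 genes did not come to this difference in the same way. In new RNA, Cyp51 was at 593 and 550 RPM in NT, 1420 in AS and 172 in RC4, and in old RNA at 399, 467, 625 and 542 RPM. New RNA of Sc4mol was at 627 and 561 RPM in NT, 2419 in AS and 181 in RC4, and that of Nsdhl at 97.7, 112, 225 and 25.2 RPM. In Hspa1b, by contrast, new RNA was higher in RC4 (6456 RPM) than in AS (3524 RPM), and old RNA grew more (850 to 7827 RPM).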

How the results depend on the processing

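Single libraries per RC4 fraction, low reads in some members and uridine-dependent capture limit these results, and clusters under 5 reads were unlisted. With a log2 distance of 1.5 from the median, 846 genes were rich in new and 807 in old RNA, of them 21 and 10 members. With a fold of 1.5 for choosing them, 117 genes were stress-induced, 21 rich in new and 16 in old RNA. With the genes raised in the 3 arsenite pairs, 3 and 5 of 18 were. For RC4 minus NT, edgeR without a block called 0 either way, no filter on low counts 1 higher and 2 lower, DESeq2 16 and 1, and the replicate block (RNA sample of origin, which pairs the fractions) 465 and 286. For RC4 minus AS, DESeq2 called 96 higher and 5 lower and the replicate block 949 and 487, beside 4 and 0. DESeq2 gave an adjusted p for 1025 and 1696 genes only. For AS against NT in total RNA, the block called 6 genes and 3 raised pairs gave 18, beside 0. Centring each sample left 11 members below both NT samples, beside 19. The pair count, the arsenite list and the centring were chosen after seeing the data. Without NT replicate 1 or 2, the median of RC4 minus NT of the members was 0.54 to 0.59, a value with no test. Leaving out any replicate left 0 genes raised by arsenite. A list of genes raised by arsenite alone was not run, as no gene passed. Of the alternative values of the main results, 53 stayed within their limits and 22 did not. Of those for single genes, 601 moved less than their error and 106 more, with no change of direction. The cause of these moves was not tested.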

Other observations

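Cholesterol synthesis genes had little new RNA at 4 h, in a list of 22 sterol genes that was drawn up after the values of Cyp51, Nsdhl and Sc4mol had been seen and that therefore supports nothing by itself. Of its 21 measured genes, 20 had new RNA at least 1 log2 lower in RC4 than in AS (16.8% of all genes), with a median of -2.58 (-3.74 to -0.59). In new RNA, 19 were at least 1 log2 below the lower NT library, a count given without the share of all genes. The medians over NT were -1.66 in new RNA and -0.59 in old RNA, beside -0.30 and -0.36 over all genes measured. Insig1, which holds back the SREBP factors of this pathway, was at 781 and 852 RPM in new RNA of NT, 2411 in AS and 313 in RC4. In log2(Ft/4sU), 20 of the 21 genes were above both NT samples (39.4% of all genes) and 13 were rich in old RNA (18.8% of all genes).

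Sqstm1, a stress-induced gene, also had a high log2(Ft/4sU) at 4 h (1.46), with new RNA at 123 and 92.5 RPM in NT and 624 in RC4. A high log2(Ft/4sU) was therefore seen both with new RNA above NT and with new RNA below NT.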
